A study of Mus musculus with 11 samples.

Results

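Respiratory complex I (NADH:ubiquinone oxidoreductase) is the entry point of the mitochondrial respiratory chain, and its nuclear genes were followed here in ventricles of newborn mice after pulmonary artery banding (PAB) or a sham operation. The genes were taken by name from the deposited table: every symbol that starts with Ndufa, Ndufb, Ndufc, Ndufs or Ndufv, without names ending in -ps, of which there were 0. This gave 45 of the 50600 gene names listed, and all 45 passed the filter on low counts that left 15808 genes for testing. They comprise 36 structural subunits (7 core and 29 accessory, the acyl carrier protein Ndufab1 among the latter), 7 assembly factors of the Ndufaf series, which are described separately, and Ndufa4 and Ndufa4l2. Ndufb1, Ndufaf8 and Coa1 were not analysed here.

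Complex I passes electrons from NADH through a flavin and a chain of iron-sulfur clusters in its matrix arm to ubiquinone, and couples this to proton pumping by its membrane arm. The core subunits of the matrix arm carry the redox centres and are nuclear-encoded, the core pumping subunits are encoded by mitochondrial DNA, and the accessory subunits surround this core and are needed for its stability and assembly. Assembly factors help to build the modules and are not part of the finished enzyme. Heart muscle turns from glycolysis to fatty acid oxidation in the first days after birth and then draws most of its ATP from this chain.

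C57BL/6 mice (C57Bl/6J in the study's methods) were operated on within 6 h of birth (day 0), and hearts were taken at 3 days (P3) or 7 days (P7) of age. In the PAB groups the pulmonary artery was narrowed with a thread, and sham animals were operated on but not banded. The libraries numbered 3 for P3 sham, 3 for P3 PAB, 3 for P7 sham and 2 for P7 PAB. The labels call the tissue heart and the methods name ventricles as the source of the RNA, without saying whether left and right were pooled. Nothing states that replicates came from separate animals or pools, so the p-values measure the spread between these libraries, which may be technical.

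The values were read counts per gene, with 19274045 to 26820228 counts per library. Levels are given as CPM (counts per 1e6 counts of the library, the library size being scaled by its TMM normalization factor), and differences come from edgeR's quasi-likelihood test over all genes. A gene was called where it changed at least 1.5-fold and its p, adjusted over all genes by Benjamini-Hochberg, was 0.05 or less. In whole-tissue RNA, fewer cells of a type and less RNA per cell cannot be told apart. Ventricular cardiomyocyte markers were abundant, summing to 51987 to 61416 CPM in P3 and P7 sham and P3 PAB libraries, and to 44806 and 47437 CPM in P7 PAB, where 2 of the 8 (Myh6 and Ryr2) were called lower, 3 had a positive difference (at most 0.51 on the log2 scale, Myl3) and the median was -0.06. Defining markers of lung and T cells were near 0 (at most 1.66 and 2.56 CPM in sum). 2 properties of the libraries bear on the comparisons at P7. First, in both P7 PAB libraries the level of a gene fell with the length of its main transcript, with slopes of -0.204 and -0.182 log2 units per doubling of length, against -0.0247 to 0.0837 in the other 9 libraries. Second, all 3 P7 sham libraries and P3 sham replicate 1 had high Xist (630 to 1060 CPM), and the other 7 libraries, both P7 PAB libraries included, had the Y-linked Ddx3y at 42.9 to 51 CPM, so that sex and operation cannot be told apart at P7.

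Promoter sequence was looked at first, because nuclear respiratory genes are known to share sites for the factors NRF1, GABPA (an ETS protein), YY1 and the estrogen-related receptors (ERR). RefSeq windows of 300 bases, from 250 before to 50 after the annotated start (GRCm38.p6), could be matched to 39 of the 45 genes. Each window was searched on both strands for exact matches to CGCATGCG (NRF1), CCGGAAGT (ETS), AAGATGGCG (YY1) and TCAAGGTCA (ERR). No window of the 39 held more than 1 of the 4 motifs, so no matches overlap. The YY1 letters occurred in 5 of the 39 windows (12.8%, against 1.64% of all 27025 genes with a window), those of Ndufs7, Ndufs4, Ndufs6, Ndufa9 and Ndufc1. The NRF1 letters occurred in 4 (10.3%, against 2.07%), those of Ndufa8, Ndufa11, Ndufaf4 and Ndufaf5. The ETS letters were found once, at Ndufs3 (2.56%, against 4.31%), and the ERR letters in 0 windows (0.466% of all genes). The 4 windows of genes called higher in P7 PAB that held a match are shown, so that its position relative to the start can be seen, and each held 1. The match is in capitals, and each runs 5′ to 3′ on the strand of its gene.
Ndufa11: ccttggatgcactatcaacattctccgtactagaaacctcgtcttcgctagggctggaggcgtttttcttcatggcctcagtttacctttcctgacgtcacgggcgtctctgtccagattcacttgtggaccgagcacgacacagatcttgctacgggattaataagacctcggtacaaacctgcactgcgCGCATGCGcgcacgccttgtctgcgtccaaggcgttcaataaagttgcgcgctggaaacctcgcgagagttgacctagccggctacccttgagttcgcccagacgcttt
Ndufc1: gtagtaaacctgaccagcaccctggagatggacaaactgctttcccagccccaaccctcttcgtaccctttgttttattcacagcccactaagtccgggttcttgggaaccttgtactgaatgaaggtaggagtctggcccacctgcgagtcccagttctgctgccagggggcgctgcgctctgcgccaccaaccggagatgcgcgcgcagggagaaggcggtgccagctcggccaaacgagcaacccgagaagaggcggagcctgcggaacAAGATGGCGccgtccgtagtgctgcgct
Ndufs7: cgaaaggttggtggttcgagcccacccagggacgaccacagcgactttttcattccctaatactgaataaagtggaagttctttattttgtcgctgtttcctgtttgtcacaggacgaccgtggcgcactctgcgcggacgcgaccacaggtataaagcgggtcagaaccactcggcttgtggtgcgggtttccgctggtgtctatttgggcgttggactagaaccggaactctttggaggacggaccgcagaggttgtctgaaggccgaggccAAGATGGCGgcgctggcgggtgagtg
Ndufs4: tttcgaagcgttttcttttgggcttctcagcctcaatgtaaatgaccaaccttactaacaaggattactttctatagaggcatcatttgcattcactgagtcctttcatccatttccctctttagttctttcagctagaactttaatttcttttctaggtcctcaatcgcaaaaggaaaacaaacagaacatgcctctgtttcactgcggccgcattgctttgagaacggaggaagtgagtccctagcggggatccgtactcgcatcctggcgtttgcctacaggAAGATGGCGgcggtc
The first lies at chr17:56717512-56717811 on the plus strand, with the NRF1 letters 59 bases before the start. The other windows lie at chr3:51408906-51409205 (minus strand), chr10:80249199-80249498 (plus strand) and chr13:114388045-114388344 (minus strand), and their YY1 letters begin 22, 24 and 35 bases after the start, within the transcribed part in each case. A match describes letters and not a bound site. No factor binding was measured in these samples.

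The level of the complex was first compared among its genes, per kilobase of main transcript, since longer transcripts collect more reads. In P7 sham libraries Ndufa4 had the highest mean level per kilobase (546 CPM per kb), followed by Ndufb8 (490), Ndufb9 (421) and Ndufb10 (415). The lowest structural subunits on this scale were Ndufs4 (61.0 CPM per kb), which helps to join the NADH-oxidising module to the rest, and Ndufab1 (72.0), the mitochondrial acyl carrier protein. The Ndufaf assembly factors all lay below the structural subunits, at 6.89 to 21.2 CPM per kb.

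Summed over the 36 structural subunits, P3 sham libraries held 5894 to 6715 CPM and P3 PAB libraries 6522 to 6723 CPM. At P7 the sum was 7685, 6815 and 6802 CPM in sham replicates 1 to 3, and 10657 and 9614 CPM in the 2 PAB libraries, which therefore lay above all other libraries. As a share of all counts, without the TMM factors, the structural subunits took 0.701% ± 0.0394 (SD, n = 3) in P3 sham, 0.715% ± 0.0193 (n = 3) in P3 PAB, 0.634% ± 0.0380 (n = 3) in P7 sham and 0.917% ± 0.0396 (n = 2) in P7 PAB. The share in P7 sham lay below that in P3 sham while the scaled sum lay above it, so the direction of the change with age in sham depends on the scale.

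**Figure D1:**
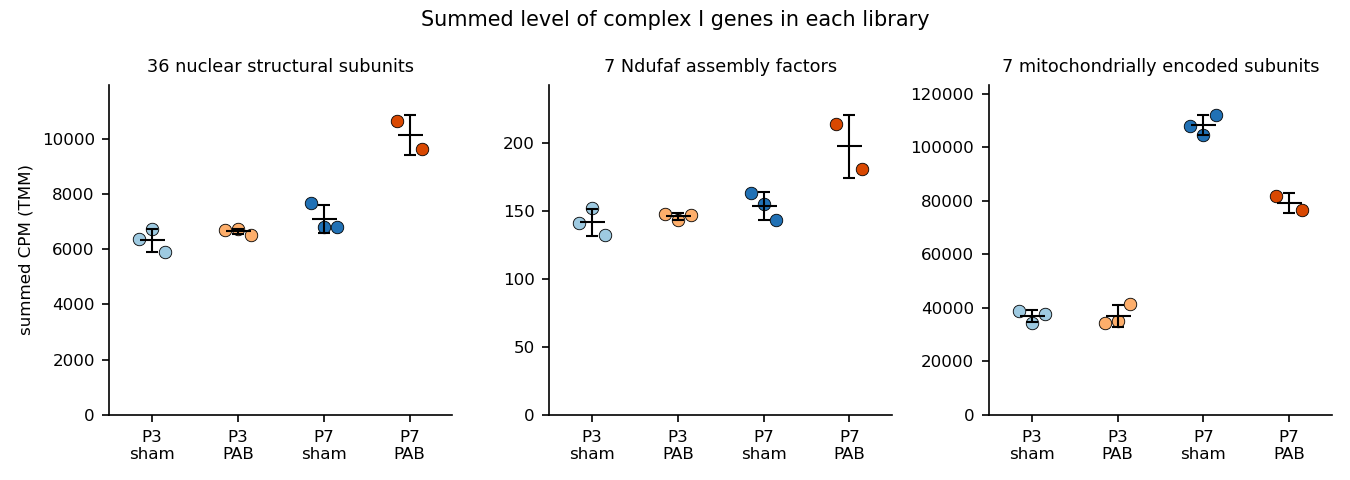
Summed CPM (y axis, TMM-scaled, starting at 0) of the 36 nuclear structural subunits, the 7 Ndufaf assembly factors and the 7 mitochondrially encoded subunits, in each library (points) of the 4 groups (x axis), with the mean and SD (bars). The nuclear structural sums of P7 PAB (10657 and 9614 CPM) are the highest, while the mitochondrially encoded sums are highest in P7 sham (104659 to 112184 CPM).

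The main question was how banding for 7 days altered the complex. Of the 45 genes, 18 were called higher after banding and 0 lower at P7, where 9.63% of all tested genes were called higher and 8.59% lower. Among the 36 structural subunits, 15 were called higher, all 36 had a positive log2 fold change (0.15 to 1.08), and the median was 0.53. Without the fold threshold 40 of the 45 genes were higher at an adjusted p of at most 0.05, against 22.8% of all genes, and 0 were lower (22.1%). In 38 genes both P7 PAB libraries lay above all 3 P7 sham libraries (30.8% of all genes), and in 1, Ndufaf2, they lay below (29.6%). Most of these transcripts are short, however, and in both P7 PAB libraries short transcripts lay higher than long ones (slopes above). With the trend in main transcript length removed from each library, a step added after the data had been seen, 1 gene (Ndufaf3) was called higher (5.23% of all genes), 1 (Ndufaf2) lower (6.65%), and the structural median was 0.13. With the trend in the summed length of all exons removed instead, 9 genes were called higher (6.27%) and 0 lower (7.13%). The values that follow are for the counts as deposited unless said otherwise.

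**Figure D2:**
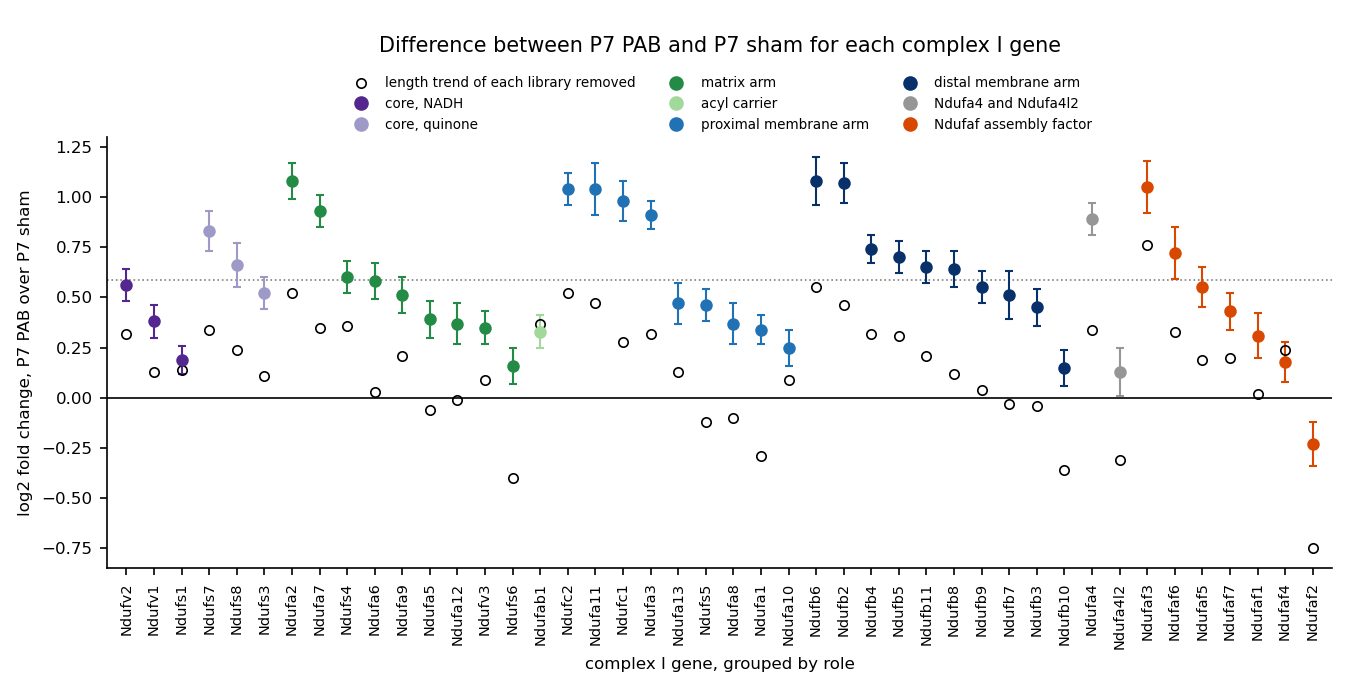
Log2 fold change of P7 PAB over P7 sham (y axis) with its standard error (bars) for 44 of the 45 genes (x axis), grouped and coloured by role, with the dotted line at a 1.5-fold change. Open circles give the same difference after the trend with main transcript length was removed from each library, which brings the structural median from 0.53 to 0.13 and leaves Ndufaf3 at 0.76 and Ndufaf2 at -0.75.

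Of the 3 core subunits that oxidise NADH, none was called, and their median log2 fold change was 0.38. Ndufv1, which binds NADH and the flavin, had 459, 486 and 448 CPM in P3 sham, 485, 492 and 438 in P3 PAB, 456, 433 and 446 in P7 sham and 625 and 535 in P7 PAB. Ndufv2, which holds an iron-sulfur cluster beside it, had 223, 225 and 199 CPM in P3 sham, 221, 227 and 236 in P3 PAB, 301, 268 and 253 in P7 sham and 420 and 391 in P7 PAB. Ndufs1, the largest subunit, which carries the clusters further along the chain, had 428, 422 and 413 CPM in P3 sham, 421, 404 and 416 in P3 PAB, 481, 522 and 485 in P7 sham and 601 and 530 in P7 PAB. In all 3 the P7 PAB libraries were the highest of the 11, but the step from sham was below 1.5-fold. It came to 1.30-fold, log2 0.38 ± 0.08 SE, adjusted p = 0.0015 for Ndufv1. Ndufv2 was at 1.48-fold, log2 0.56 ± 0.08 SE, adjusted p = 9.2e-05. Ndufs1 had the smallest step of the core subunits (1.14-fold, log2 0.19 ± 0.07 SE, adjusted p = 0.048).

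The 4 core subunits that hand electrons to ubiquinone had a median of 0.59, and 2 of them were called. Ndufs7, which holds the last iron-sulfur cluster before ubiquinone, had 155, 170 and 147 CPM in P3 sham, 167, 182 and 176 in P3 PAB, 150, 112 and 128 in P7 sham and 244 and 218 in P7 PAB. Its P7 PAB libraries were the highest, and its P7 sham libraries included the lowest of all (1.78-fold, log2 0.83 ± 0.10 SE, adjusted p = 1.9e-05). Ndufs8, which carries the clusters that feed Ndufs7, had 78.9, 89 and 70.6 CPM in P3 sham, 87.1, 89.7 and 87.4 in P3 PAB, 102, 84.5 and 79.6 in P7 sham and 153 and 127 in P7 PAB. Both P7 PAB libraries lay above every other library (1.58-fold, log2 0.66 ± 0.11 SE, adjusted p = 2.3e-04), but the call was lost when P7 PAB replicate 1 was left out, a fit in which the 1 remaining P7 PAB library is assumed to vary like the other groups. Ndufs3, a scaffold of the early assembly intermediate, had 163, 166 and 148 CPM in P3 sham, 165, 164 and 172 in P3 PAB, 178, 171 and 159 in P7 sham and 250 and 235 in P7 PAB. Its P7 PAB libraries were the highest, below 1.5-fold from sham (1.43-fold, log2 0.52 ± 0.08 SE, adjusted p = 6.8e-05).

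Among the 9 accessory subunits of the matrix arm, 3 were called higher (Ndufa2, Ndufa7 and Ndufs4) and the median was 0.51. Ndufa2, a small protein with a thioredoxin-like fold, had 133, 148 and 122 CPM in P3 sham, 145, 153 and 141 in P3 PAB, 97.4, 84.5 and 88.1 in P7 sham and 199 and 181 in P7 PAB. This gene combined the lowest levels in P7 sham with the highest in P7 PAB, and its difference was, with that of Ndufb6, the largest of all 45 (2.11-fold, log2 1.08 ± 0.09 SE, adjusted p = 7.6e-07). Ndufa7 had 80.3, 79.6 and 71.8 CPM in P3 sham, 80.3, 85.3 and 80.4 in P3 PAB, 90.3, 76.3 and 77.7 in P7 sham and 161 and 149 in P7 PAB. The 9 libraries outside P7 PAB lay between 71.8 and 90.3 CPM, and P7 PAB stood above them (1.91-fold, log2 0.93 ± 0.08 SE, adjusted p = 1.3e-06). Ndufs4 passed narrowly (1.52-fold, log2 0.60 ± 0.08 SE, adjusted p = 3.2e-05) and lost its call under 8 of the 26 other settings, among them the replicate block (log2 fold change 0.57), the Xist and Y class (0.52), every removal of a length trend, and leaving out P7 sham replicate 3 (0.55), whereas Ndufa6, a subunit that binds the acyl carrier protein, stopped just short of 1.5-fold (log2 fold change 0.58 ± 0.09 SE, adjusted p = 1.1e-04). Ndufs6, which binds zinc near the NADH-oxidising module, had the smallest step of this arm. Its levels were 115, 120 and 104 CPM in P3 sham, 127, 125 and 121 in P3 PAB, 188, 158 and 162 in P7 sham and 197 and 181 in P7 PAB. Here P7 sham replicate 1 lay between the 2 P7 PAB libraries, and both P7 groups lay above both P3 groups (1.12-fold, log2 0.16 ± 0.09 SE, adjusted p = 0.14 for PAB against sham at P7). The acyl carrier protein Ndufab1, which also serves mitochondrial fatty acid and iron-sulfur synthesis, had 208, 229 and 198 CPM in P3 sham, 224, 224 and 224 in P3 PAB, 277, 236 and 239 in P7 sham and 324 and 304 in P7 PAB. Its P7 PAB libraries were the highest, with a small difference (1.25-fold, log2 0.33 ± 0.08 SE, adjusted p = 0.0053).

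The 9 accessory subunits of the proximal membrane arm had a median of 0.47, and 4 were called. Ndufc2 (chr7:97400003-97407802) had 86.5, 89.1 and 84 CPM in P3 sham, 94.4, 94.7 and 91.2 in P3 PAB, 115, 94.3 and 93.8 in P7 sham and 216 and 199 in P7 PAB. Ndufc1, its partner in the membrane, had 79.9, 82.8 and 72 CPM in P3 sham, 86.6, 88.8 and 76.9 in P3 PAB, 88.8, 74.3 and 73.6 in P7 sham and 167 and 143 in P7 PAB. Ndufa3 had 97.4, 101 and 94.7 CPM in P3 sham, 99.9, 103 and 96.6 in P3 PAB, 118, 106 and 105 in P7 sham and 212 and 200 in P7 PAB. In all 3, both P7 PAB libraries stood well above the 9 others, which reached at most 115, 88.8 and 118 CPM. The difference was 2.05-fold, log2 1.04 ± 0.08 SE, adjusted p = 7.8e-07 for Ndufc2. For Ndufc1 it was 1.97-fold, log2 0.98 ± 0.10 SE, adjusted p = 3.5e-06. Ndufa3 was at 1.87-fold, log2 0.91 ± 0.07 SE, adjusted p = 6.2e-07. Ndufa11, which helps to hold the membrane arm together, had 164, 179 and 136 CPM in P3 sham, 169, 176 and 186 in P3 PAB, 173, 121 and 142 in P7 sham and 326 and 270 in P7 PAB. Its P7 PAB libraries were again the highest, though its replicates were more scattered (2.05-fold, log2 1.04 ± 0.13 SE, adjusted p = 2.4e-05). Ndufa10 had 322, 331 and 305 CPM in P3 sham, 334, 333 and 340 in P3 PAB, 401, 375 and 356 in P7 sham and 500 and 400 in P7 PAB. In that gene P7 PAB replicate 2 lay below P7 sham replicate 1, and the groups overlapped (1.19-fold, log2 0.25 ± 0.09 SE, adjusted p = 0.03). The remaining 4 subunits of this arm (Ndufa1, Ndufs5, Ndufa8 and Ndufa13) were not called, with log2 fold changes of 0.34 to 0.47.

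In the distal membrane arm 6 of the 10 accessory subunits were called higher, with a median of 0.64. With a fitted trend in the summed length of a gene's exons removed, these values were 3 and 0.48, and with a trend in main-transcript length removed, 0 and 0.16. Ndufb6 (chr4:40270591-40279421) had 75.6, 92.4 and 73.2 CPM in P3 sham, 92.5, 87.8 and 77.8 in P3 PAB, 86.5, 72.6 and 68.9 in P7 sham and 175 and 145 in P7 PAB. Ndufb2 had 72.1, 87.1 and 78.3 CPM in P3 sham, 87.2, 87 and 72.3 in P3 PAB, 81.8, 74.6 and 67.9 in P7 sham and 160 and 154 in P7 PAB. Both stood above every other library in P7 PAB, while P3 and P7 sham overlapped. Their differences were 2.11-fold, log2 1.08 ± 0.12 SE, adjusted p = 7.0e-06 for Ndufb6, and for Ndufb2 2.10-fold, log2 1.07 ± 0.10 SE, adjusted p = 2.0e-06. Ndufb4 had 68.2, 74.5 and 67 CPM in P3 sham, 72.3, 73.9 and 70.7 in P3 PAB, 108, 103 and 95.7 in P7 sham and 165 and 178 in P7 PAB. The P7 sham libraries of this gene already lay above all P3 libraries, though its change with age in sham was not called. Both P7 PAB libraries lay above those of P7 sham (1.67-fold, log2 0.74 ± 0.07 SE, adjusted p = 2.9e-06 for PAB against sham at P7). Ndufb5 had 168, 182 and 165 CPM in P3 sham, 182, 185 and 179 in P3 PAB, 220, 202 and 195 in P7 sham and 355 and 315 in P7 PAB. Its pattern was like that of Ndufb4 with a smaller step between the ages in sham (1.63-fold, log2 0.70 ± 0.08 SE, adjusted p = 8.1e-06). Ndufb8 (log2 fold change 0.64 ± 0.09 SE, adjusted p = 4.2e-05) and the X-linked Ndufb11 (log2 fold change 0.65 ± 0.08 SE, adjusted p = 2.0e-05) made up the 6. Ndufb10 was the exception in this arm. It had 304, 347 and 289 CPM in P3 sham, 336, 328 and 322 in P3 PAB, 336, 290 and 286 in P7 sham and 358 and 315 in P7 PAB. Its groups overlapped at both ages, and it was called in no comparison of the counts as deposited (1.11-fold, log2 0.15 ± 0.09 SE, adjusted p = 0.23 at P7).

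Ndufa4, now counted as a subunit of cytochrome c oxidase despite its name, had 337, 355 and 311 CPM in P3 sham, 349, 342 and 324 in P3 PAB, 352, 327 and 320 in P7 sham and 636 and 598 in P7 PAB. The 9 libraries outside P7 PAB lay between 311 and 355 CPM, and both P7 PAB libraries were far above them (1.85-fold, log2 0.89 ± 0.08 SE, adjusted p = 1.3e-06). Ndufa4l2, its hypoxia-inducible relative, had 15.3, 15.9 and 14 CPM in P3 sham, 17.4, 18.4 and 13.8 in P3 PAB, 20.3, 17.9 and 21.4 in P7 sham and 20.8 and 22.7 in P7 PAB. The P7 groups overlapped, and the difference was not called (1.09-fold, log2 0.13 ± 0.12 SE, adjusted p = 0.39).

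**Figure D3:**
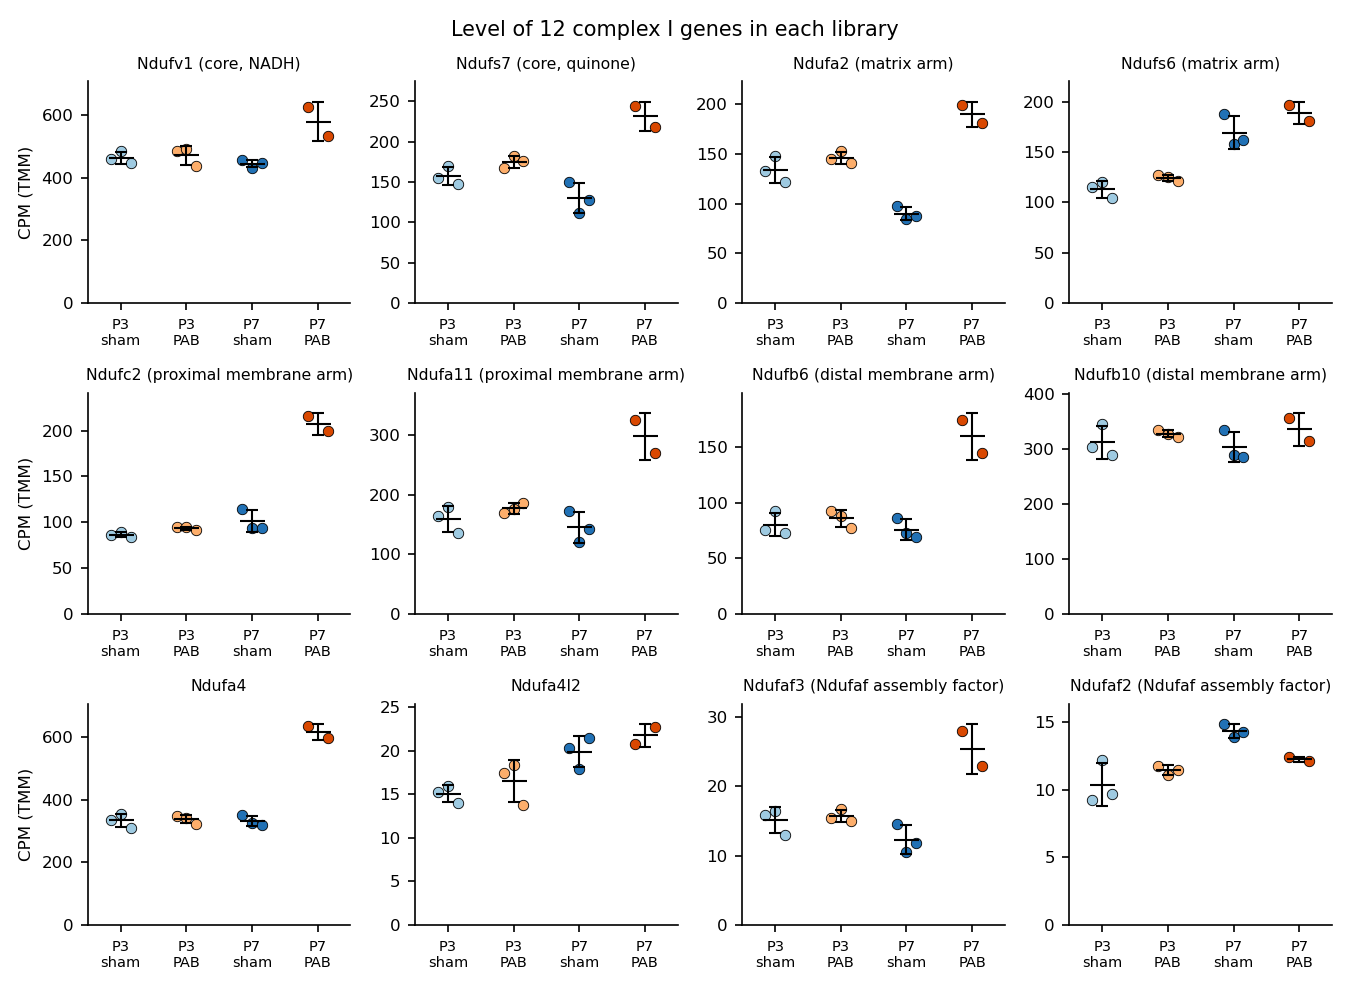
CPM (y axis of each panel, TMM-scaled, starting at 0) of 12 complex I genes in the libraries (points) of the 4 groups (x axis), with the mean and SD (bars). P7 PAB stands apart from all other libraries in Ndufs7, Ndufa2, Ndufc2, Ndufa11, Ndufb6, Ndufa4 and Ndufaf3, overlaps P7 sham in Ndufs6, Ndufb10 and Ndufa4l2, and lies below P7 sham in Ndufaf2.

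Of the 7 Ndufaf assembly factors, 2 were called higher in P7 PAB and the median was 0.43. Ndufaf3 (chr9:108565537-108567434, GRCm38), which acts with Ndufaf4 in building the ubiquinone-reducing module, had 15.9, 16.5 and 13 CPM in P3 sham, 15.4, 16.7 and 15 in P3 PAB, 14.6, 10.5 and 11.8 in P7 sham and 28 and 22.9 in P7 PAB. Its P7 sham libraries included the lowest of the 11 and its P7 PAB libraries were the highest (2.07-fold, log2 1.05 ± 0.13 SE, adjusted p = 2.4e-05). Ndufaf3 was also the only one of the 18 called genes whose call held under all 26 other settings tried, at log2 fold changes of 0.71 to 1.19. Its exons share 48 bases, 2.64% of its exonic length, with Impdh2 on the opposite strand, which had a log2 fold change of 0.04 (adjusted p = 0.68). Ndufaf4 had 51, 55 and 48.4 CPM in P3 sham, 52.5, 51.1 and 56.9 in P3 PAB, 56.2, 56.5 and 50.7 in P7 sham and 68.9 and 54.5 in P7 PAB. The P7 groups of this partner of Ndufaf3 overlapped (1.13-fold, log2 0.18 ± 0.10 SE, adjusted p = 0.14). Ndufaf6, an early-acting factor, had 9.53, 10.8 and 7.96 CPM in P3 sham, 11, 9.18 and 10.6 in P3 PAB, 7.88, 7.29 and 7.21 in P7 sham and 12.3 and 12.3 in P7 PAB. Both P7 PAB libraries lay above all others in that gene, and the P7 sham libraries were the lowest (1.65-fold, log2 0.72 ± 0.13 SE, adjusted p = 3.8e-04).

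Ndufaf2 (chr13:108002715-108158623), singled out after its values were seen, was the one member with a negative difference at P7. This factor is a relative of the subunit Ndufa12 and gives way to it late in assembly. Ndufaf2 had 9.27, 12.2 and 9.70 CPM in P3 sham, 11.8, 11.1 and 11.5 in P3 PAB, 14.9, 13.9 and 14.3 in P7 sham and 12.4 and 12.1 in P7 PAB. Every P7 PAB library was below every P7 sham library, and the counts as deposited gave no call (0.85-fold, log2 -0.23 ± 0.11 SE, adjusted p = 0.11). After removal of the main-transcript trend it was called lower (log2 fold change -0.75, adjusted p = 9.5e-05). Its main transcript is 678 bases long, and 65.6% of its exonic length lies across an exon of B230220B15Rik on the opposite strand. Whether reads were counted by strand is not given in the sources used here, so reads of the pair cannot be told apart. The exons of 19 of the 45 genes overlap another gene, on the opposite strand in 17, Ndufb6 (39.0% of its exonic length) and Ndufa13 (30.0%) among them.

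Transcript length was then set beside the members' changes. The main transcripts of the 45 genes had a median of 907 bases, against 2870 bases for the 14935 tested genes with a known length. The 18 genes called higher at P7 had a median of 681 bases (315 to 1698) and the 27 others 1110 bases (419 to 3632). Spearman's rho between length and log2 fold change at P7 was -0.415 over the 45 genes and -0.463 over the 14935, which is a description across genes that share the same libraries. Among the 1033 genes of 500 to 1000 bases, 35.4% were called higher and the median log2 fold change was 0.49. Of these, 23 were complex I genes, 12 of them were called, and their median was 0.64. In the class of 1000 to 1500 bases, 22.9% of genes and 3 of the 9 complex I genes were called, with medians of 0.35 and 0.52. From 1500 to 2000 bases the called share was 13.9% of genes and 1 of 6 members, at medians of 0.24 and 0.41. Within each class up to 5000 bases, the median of the structural subunits lay above that of all genes. From the shortest class to the longest, these medians rest on 3, 20, 5, 5, 2 and 1 subunits. In the class of 500 to 1000 bases this held for 14 of 20 structural subunits taken singly.

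**Figure D4:**
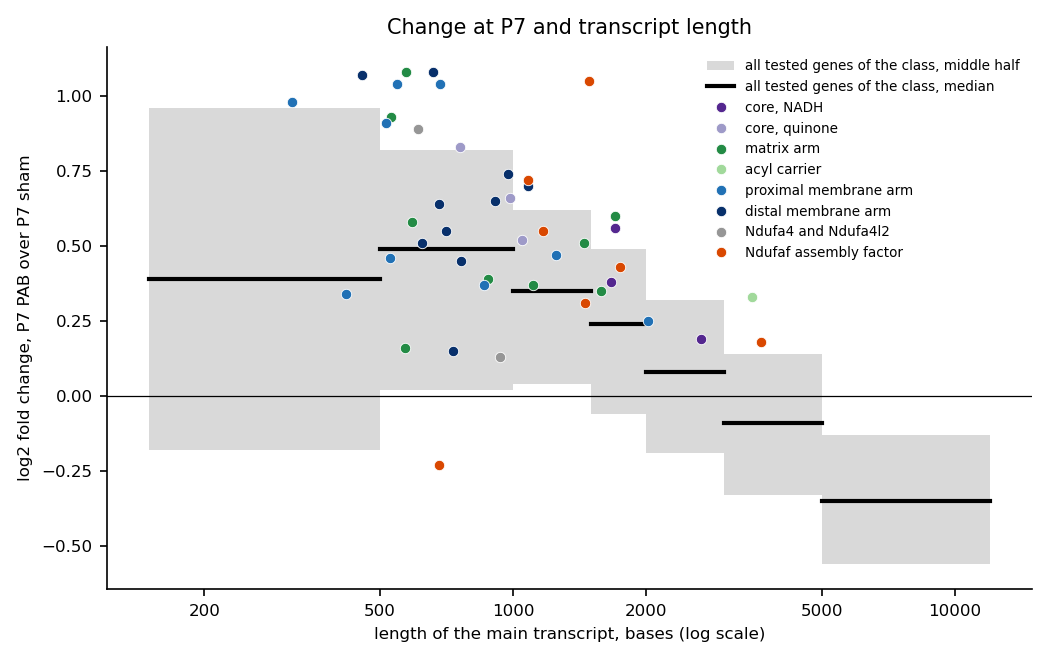
Log2 fold change of P7 PAB over P7 sham (y axis) against the length of the main transcript in bases (x axis, log scale), with 44 of the 45 complex I genes as points coloured by role. Black lines and grey boxes give the median and the quartiles of all tested genes in 7 length classes, the first and last of which are open-ended. The class medians fall from 0.49 at 500 to 1000 bases to -0.35 above 5000 bases.

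With the main-transcript trend removed, 27 of the 36 structural subunits still had a positive difference at P7. The highest were Ndufb6 (log2 fold change 0.55), Ndufa2 (0.52), Ndufc2 (0.52), Ndufa11 (0.47) and Ndufb2 (0.46), all below 1.5-fold. Without the fold threshold, 19 of the 45 genes were then higher (17.4% of all genes) and 5 lower (15.8%). The 5 were Ndufs6 (-0.40), Ndufa1 (-0.29), Ndufb10 (-0.36), Ndufa4l2 (-0.31) and Ndufaf2. On this scale Ndufb6 and Ndufb10, which both belong to the distal membrane arm, lay on opposite sides of 0. With the all-exon trend removed instead, 31 of the 36 structural subunits had a positive difference.

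The order of libraries within a group was counted beside their slopes. P7 PAB replicate 1, with the steeper slope, was above replicate 2 in 40 of the 45 genes, by a median ratio of 1.1. P7 sham replicate 1, the one sham library with a negative slope (-0.0247), was the highest P7 sham library in 41 genes. P3 sham replicate 3, with the most positive slope (0.0837), was the lowest P3 sham library in 41. In P3 PAB, where the slopes were closer together (0.0246 to 0.0465), replicate 3 had the most positive slope and was the lowest library in 25 genes. What sets the slope of a library was not tested.

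At P3 the question was whether banding had altered the complex after 3 days. No change was detectable, with 0 of the 45 genes called higher (0.108% of all genes) and 0 lower (0.0190%). Their folds ran from 0.964 to 1.13. Without the fold threshold the counts stayed at 0 (0.114% of all genes higher and 0.0253% lower). By edgeR 0 members had an unadjusted p of at most 0.05, and by DESeq2 the count was 0 both adjusted and unadjusted. Ndufa12 had the lowest unadjusted p (0.063), with a log2 fold change of 0.18. Of the 36 structural subunits 34 were positive at a median of 0.08, or 26 at a median of 0.02 once the main-transcript trend was removed. Over the 45 genes the median of 0.07 (41 positive) was 0.02 (34 positive) without P3 sham replicate 3 and 0.12 (42 positive) without P3 sham replicate 2. In 7 genes every P3 PAB library lay above every P3 sham library (8.65% of all genes), namely Ndufv3, Ndufa6, Ndufs6, Ndufa7, Ndufa12, Ndufc2 and Ndufa10, and in 0 genes below (8.02%). The lowest level of any member, 7.21 CPM for Ndufaf6, lay well above the 0.114 to 0.148 CPM that 3 counts amount to in these libraries.

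Between P3 and P7 in sham animals, 2 genes were called higher (5.62% of all genes) and 0 lower (5.73%), and the median over the 45 was 0.16 (33 positive), or 0.09 (29 positive) without P7 sham replicate 1. Ndufa1, a small X-linked protein at the base of the membrane arm, had 83.5, 85.5 and 75.1 CPM in P3 sham, 83.7, 87.2 and 85.8 in P3 PAB, 139, 121 and 132 in P7 sham and 167 and 165 in P7 PAB. Ndufa13, also known as GRIM-19, had 173, 177 and 160 CPM in P3 sham, 170, 175 and 183 in P3 PAB, 294, 232 and 255 in P7 sham and 385 and 334 in P7 PAB. In both, every P7 library lay above every P3 library. Ndufa1 was at 1.60-fold, log2 0.68 ± 0.07 SE, adjusted p = 5.1e-06 in sham. Ndufa13 had 1.53-fold, log2 0.62 ± 0.09 SE, adjusted p = 1.0e-04, and its call was lost without P3 sham replicate 3 or without P7 sham replicate 1. Ndufs6 came next, just below the fold threshold (log2 fold change 0.58 ± 0.08 SE, adjusted p = 6.1e-05), followed by Ndufb4 (log2 fold change 0.55 ± 0.07 SE, adjusted p = 2.8e-05) and Ndufa5 (log2 fold change 0.50 ± 0.08 SE, adjusted p = 2.8e-04). At the other end Ndufa2, whose values are given above, had the largest negative change (log2 fold change -0.58 ± 0.08 SE, adjusted p = 7.6e-05), below 1.5-fold by a small margin. Without the fold threshold 20 genes were higher (16.2% of all genes) and 3 lower (16.8%). The 3 were Ndufa2, Ndufs7 (log2 fold change -0.28 ± 0.09 SE, adjusted p = 0.033) and Ndufaf6 (log2 fold change -0.35 ± 0.12 SE, adjusted p = 0.035). In 22 genes every P7 sham library lay above every P3 sham library (22.4%) and in 2 below (22.9%). With the main-transcript trend removed, Ndufa13 was called higher (1 gene, 5.68% of all genes) and Ndufa2 lower (1 gene, 5.84%), and with the all-exon trend removed 0 were higher (5.55%) and Ndufa2 alone was lower (5.90%). Scaling by total counts instead of TMM moved the median of all genes by -0.31 and gave 0 higher (2.51% of all genes) and 4 lower calls (18.2%), so the direction of the smaller changes with age depends on the scaling. All P7 sham libraries but only replicate 1 of P3 sham had high Xist, so age and sex are partly mixed in sham. With high Xist as a term, 4 complex I genes were called higher and 0 lower. Of all 15808 genes, that fit called 614 higher and 724 lower.

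In PAB animals over the same days, 25 genes were called higher (9.50% of all genes) and 0 lower (8.20%). Of the 36 structural subunits 21 were called, with a median of 0.68, and in 43 of the 45 genes every P7 PAB library lay above every P3 PAB library (32.0%), with 0 below (30.7%). Without the fold threshold 41 genes were higher (22.3%) and 0 lower (21.2%). Ndufb4 had the largest change (2.38-fold, log2 1.25 ± 0.07 SE, adjusted p = 3.0e-08). Ndufc2 followed (2.22-fold, log2 1.15 ± 0.08 SE, adjusted p = 3.1e-07), then Ndufa3 (2.06-fold, log2 1.04 ± 0.07 SE, adjusted p = 1.6e-07). Ndufa13 (log2 fold change 1.03 ± 0.10 SE, adjusted p = 1.9e-06) and Ndufa1 (log2 fold change 0.96 ± 0.07 SE, adjusted p = 4.9e-07) rose in PAB as well as in sham animals. Ndufb10 had the smallest change (log2 fold change 0.03 ± 0.09 SE, adjusted p = 0.8). With the main-transcript trend removed 4 higher calls were left (5.29% of all genes), those of Ndufv2, Ndufc2, Ndufa13 and Ndufb4, and 0 were lower (6.64%). With the all-exon trend removed the count was 13 (6.32%), with 0 lower (7.27%), and scaling by total counts, which moved the median of all genes by -0.25, gave 13 higher (4.08%) and 0 lower (19.4%).

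**Figure D5:**
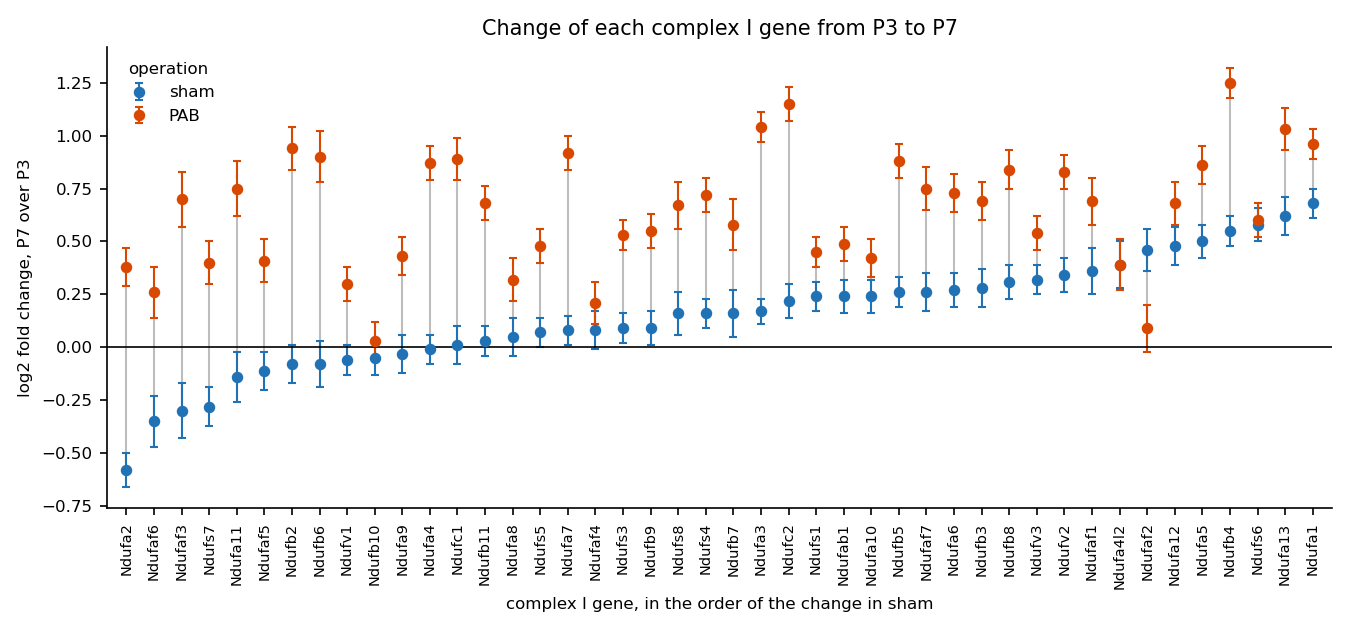
Log2 fold change from P3 to P7 (y axis) with its standard error (bars) for 44 of the 45 genes (x axis, in the order of the change in sham), in sham (blue) and PAB (orange). Ndufa2 lies lowest in sham (-0.58) and at 0.38 in PAB, while Ndufb10 is near 0 in both (-0.05 and 0.03).

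Whether the effect of banding differed between P7 and P3 was tested by an interaction term, which asks if the 2 log2 fold changes differ. It was positive for 31 genes (adjusted p of at most 0.05, against 13.3% of all genes) and negative for 0 (12.6%). Ndufb2 (1.02 ± 0.13 SE, adjusted p = 1.9e-04), Ndufaf3 (1.00 ± 0.18 SE, adjusted p = 0.0013) and Ndufb6 (0.98 ± 0.16 SE, adjusted p = 6.9e-04) had the largest terms. Ndufs6 (0.02 ± 0.11 SE, adjusted p = 0.91) and Ndufa4l2 (-0.00 ± 0.16 SE, adjusted p = 0.99) had terms near 0. With the main-transcript trend removed it was positive for 11 genes (7.71%) and negative for 4 (7.19%). The 11 were Ndufa2, Ndufs4, Ndufa7, Ndufc2, Ndufa3, Ndufb2, Ndufb4, Ndufb5, Ndufb6, Ndufa4 and Ndufaf3, and the 4 were Ndufs6, Ndufa1, Ndufb10 and Ndufaf2. With the all-exon trend removed the counts were 19 (10.4%) and 2 (8.93%). This comparison, the P7 contrast and the change with age share the same libraries, so they are not independent of one another.

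The subunits encoded by mitochondrial DNA, which form the pumping core of the same enzyme, ran differently from the nuclear ones. Their sum was 34315 to 38826 CPM in P3 sham, 34294 to 41605 in P3 PAB, 104659 to 112184 in P7 sham, and 81825 and 76657 in P7 PAB. It took 9.67% ± 0.269 of all counts in P7 sham (SD, n = 3) and 7.17% ± 0.120 in P7 PAB (n = 2). From P3 to P7 in sham, 6 of the 7 were called higher (5.62% of all genes) with a median of 1.54. Of the 45 nuclear genes, 2 were called higher. In PAB over the same days 6 mitochondrially encoded subunits were called higher as well (9.50% of all genes), with a median of 1.23. Between PAB and sham at P7, 1 was called higher (9.63% of all genes) and 2 lower (8.59%), with a median of -0.38. The gene called higher was mt-Nd3 (log2 fold change 0.88, adjusted p = 3.8e-06), and mt-Nd5 (-0.94, adjusted p = 1.8e-05) and mt-Nd6 (-0.81, adjusted p = 4.1e-05) were called lower. Without the main-transcript trend the median was -0.78. Then 5 were called lower (6.65% of all genes) and 0 higher (5.23%), so that the call of mt-Nd3 was lost. Nuclear and mitochondrial parts of the enzyme therefore had opposite signs at P7 in most of their members.

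Other genes of the pathway were counted from lists. Of 12 regulators of mitochondrial biogenesis, 0 were called higher (9.63% of all genes) and 3 lower (8.59%) in P7 PAB. These were Ppargc1a, the coactivator PGC-1 alpha (log2 fold change -1.25, adjusted p = 6.7e-06), Ppara, a receptor that drives fatty acid oxidation genes (-1.11, adjusted p = 1.8e-06), and Ppargc1b (-0.69, adjusted p = 5.1e-05). The median of the 12 was -0.43, or -0.17 with 3 called lower (6.65% of all genes) once the main-transcript trend was removed. Of 11 other complex I assembly factors, 1 was called higher, against 9.63% of all genes, and 0 lower (8.59%). The called gene was Tmem261 (0.65, adjusted p = 2.2e-05). The median of the 11 was 0.32, or 0.03 once the main-transcript trend was removed. Tmem261 had no length in the annotation, so its own value could not be corrected. The nuclear subunits of complexes II to V were called higher in 20 of 41 cases (9.63% of all genes) with a median of 0.58. The structural subunits of complex I stood at 15 of 36 and 0.53, and no test compared the lists. By complex the calls were 1 of 4 for complex II, 6 of 9 for III, 7 of 13 for IV and 6 of 15 for V. Without the main-transcript trend 4 of the 41 were called higher (5.23% of all genes), at a median of 0.19.

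Other properties of the P7 groups moved with the operation and are given beside these results. A fit with high Xist as a term called 21 complex I genes higher at P7 (7.67% of all genes) and 0 lower (5.93%), and gave the X-linked Ndufb11 a log2 fold change of 0.64 (adjusted p = 0.0075). For the interaction it called 22 genes higher (7.84%) in place of 31, and 0 lower (6.65%), and with the main-transcript trend removed as well 5 higher (3.42%) and 2 lower (3.01%). That term is set by 1 library, P3 sham replicate 1, against the other 2 P3 sham libraries, and is carried over to P7, where every sham library and no PAB library has high Xist, so it does not separate sex from operation there. Summed endothelial markers were 1338 to 1414 CPM in P7 sham and 1102 to 1225 in P7 PAB, with 1 of 5 (Egfl7) called higher, and fibroblast markers 3017 to 3168 and 2764 to 3268, with 1 of 6 (Pdgfra) called lower. Smooth muscle markers summed to 559 to 754 CPM in P7 sham and 795 to 977 in P7 PAB, where Cnn1 (log2 fold change 2.56) and Tagln (1.19) of the 4 were called higher and Myh11 was at -0.24. Erythroid markers summed to 1576 to 2116 and 2368 to 2649, and macrophage markers to 39.4 to 56.2 and 36.2 to 43.2. Atrial markers summed to 53.7 to 98.5 CPM in P7 sham and 136 to 158 in P7 PAB, with 1 of 4, Myl4, called higher. Skeletal muscle markers summed to 1624 to 1959 and 2342 to 2760 CPM, which came from Acta1 and Ckm, genes that heart muscle also uses, and of the 5 tested Acta1 was called higher (log2 fold change 2.94). Brown fat markers summed to 513 to 569 and 760 to 765 CPM, which came from Fabp4 and Cidea, the latter called higher (0.90), while Ucp1, Adipoq and Plin1 were at or near 0. The part of cell composition in the complex I values was not tested.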

How the data were processed

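RNA-seq was made from ventricles (labelled heart) of C57BL/6 mice, C57Bl/6J in the methods, at P3 and P7 after PAB or sham operation, as 11 libraries in 4 groups named by the labels. The deposited table holds raw read counts per gene, which the authors made from reads aligned with STAR 2.5.2b to GRCm38. The counting tool, its strand setting and the annotation release are not given in the sources used here. Each of the 11 columns was matched to a sample by name and all were used. Depth was 19274045 to 26820228 counts per library, so that 3 counts, the most a count of 0 allows, equal 0.114 to 0.148 CPM (counting error only).

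Genes were filtered by filterByExpr (15808 of 50600 left), scaled by TMM and tested with edgeR 4.0.16 (R 4.3.3) by glmQLFit and glmQLFTest over all 11 libraries, with Benjamini-Hochberg adjustment over all genes tested. Contrasts were PAB against sham at each age, P7 against P3 after either operation, and the interaction. DESeq2 1.42.0, other scalings, filters and designs, removal of the trend with length (lowess in R, span 0.3) and leaving out single libraries were alternatives. The fit was tested on simulated data with 200 of 15808 genes changed 2-fold, of which 98.5% were recovered at P3 and 96.5% at P7, beside 2 and 8 false calls. A simulated trend in all-exon length, with no changed gene, gave 201 false calls, and 0 after removal by that same length. Removal by main-transcript length was not simulated, nor was the effect of a removal on genes that do change. Lengths and positions came from GENCODE M21 (GRCm38), matched by symbol for 43914 names, and promoters from RefSeq (GRCm38.p6).

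The members, the lists and the tests were chosen with earlier results of these data known. Named with values in every library were the 14 genes with the largest absolute log2 fold change among those called at P7, the core subunits, Ndufa4 and Ndufa4l2, and the gene with the smallest absolute change in each role. 1 gene that counts among the members, and in all counts and medians over them, is not reported singly here. Ndufa1, Ndufa13 and Ndufaf2 were added after their values were seen. Lists were described by counts, medians and the 1 to 3 genes with the largest change. Promoters with equal numbers of matches were ordered by their change at P7.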

Additional observations from a re-analysis of the deposited data

Results flagged for a closer look

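For 31 complex I genes the effect of banding at P7 differed from that at P3 by the interaction test (edgeR, adjusted p of at most 0.05), each with a positive difference between the 2 log2 fold changes. Of all genes, 13.3% were higher by this test and 12.6% lower. The values of the genes reported singly follow. Among the core subunits differences were 0.36 for Ndufv1, 0.49 for Ndufv2, 0.45 for Ndufs3, 0.68 for Ndufs7 and 0.51 for Ndufs8. In the matrix arm they were 0.96 for Ndufa2, 0.57 for Ndufs4, 0.36 for Ndufa5, 0.46 for Ndufa6, 0.85 for Ndufa7 and 0.45 for Ndufa9. The proximal membrane arm gave 0.87 for Ndufc1, 0.93 for Ndufc2, 0.88 for Ndufa3, 0.41 for Ndufs5, 0.89 for Ndufa11 and 0.42 for Ndufa13. In the distal membrane arm the values were 1.02 for Ndufb2, 0.41 for Ndufb3, 0.70 for Ndufb4, 0.62 for Ndufb5, 0.98 for Ndufb6, 0.52 for Ndufb8, 0.46 for Ndufb9 and 0.65 for Ndufb11. Outside the structural subunits they were 0.87 for Ndufa4, 1.00 for Ndufaf3, 0.52 for Ndufaf5, 0.60 for Ndufaf6 and 0.49 for Ndufaf7. Both P7 PAB libraries carry the negative length slopes given above (-0.204 and -0.182), and all P7 sham libraries have high Xist. With a term for high Xist, which rests on 1 library of P3 sham, 22 of the 45 genes had a positive difference at the same threshold (7.84% of all genes). With the main-transcript length trend removed 11 were higher (7.71%) and 4 lower (7.19%), or 5 (3.42%) and 2 (3.01%) with the high-Xist term as well, and without that term Ndufa5, Ndufs5, Ndufb3 and Ndufa6 had negative values (-0.04, -0.10, -0.02 and -0.02).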

How the results depend on the processing

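Counts of called genes are out of 45. At P3 0 genes were called under every alternative. At P7 the 18 higher calls became 40 without the fold threshold, 9 with the all-exon length trend removed (8 with the replicate block added), and 1 with the main-transcript trend removed, alone, with the block or with the Xist and Y class, where 1 gene was also lower each time. In sham from P3 to P7, 2 higher and 0 lower became 0 and 4 by total counts, 20 and 3 without the fold threshold, 0 and 1 without the all-exon trend (also with the block), 1 and 1 without the main-transcript trend (also with the block), 0 and 1 when the class was added to that, and 4 higher with the class alone. 1 gene was lower with no filter on low counts and with only the groups compared. In PAB from P3 to P7, 25 higher became 13 by total counts, 41 without the fold threshold, 13 without the all-exon trend (11 with the block), and 4 without the main-transcript trend (3 with the block, 4 with the class). The interaction went from 31 higher and 0 lower to 19 and 2 without the all-exon trend (17 and 2 with the block), 22 and 0 with the class alone, 11 and 4 without the main-transcript trend (10 and 4 with the block, 5 and 2 with the class), and 1 was lower by DESeq2 with unadjusted p.

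Leaving out 1 library at a time gave 17 to 23 higher at P7, 1 to 5 higher and 0 to 1 lower in sham with age, 21 to 28 in PAB with age, and 20 to 35 higher and 0 to 1 lower for the interaction, with 20 when P7 PAB replicate 1 was left out. Without either P7 PAB library that arm holds 1 library, which is assumed to vary like the other groups. In sham with age, 1 was left without P3 sham replicate 3 or P7 sham replicate 1, and 5 and 4 were called without P3 sham replicate 2 and P7 sham replicate 3.

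Among the called genes, signs turned where a length trend was removed. By total counts, 12 of the 45 genes were positive in sham with age in place of 33 (median -0.15 in place of 0.16), and 35 in place of 41 at P3. From P3 to P7 in PAB, Ndufs6 went to -0.03, -0.05 with the block and -0.03 with the class, and Ndufc1 to -0.00, -0.04 and -0.00. For the interaction, Ndufa5 went to -0.04, -0.07 and -0.03 (and -0.01 without the all-exon trend, with the block), Ndufs5 to -0.10, -0.12 and -0.08, Ndufb3 to -0.02, -0.04 and -0.15, Ndufa6 to -0.02 and -0.05 (block), and Ndufb9 to -0.01 (block). The main-transcript settings were chosen after seeing the data. The cause was not tested.

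The replicate number alone as a block gave 0 genes at P3, 17 at P7, 2 in sham and 24 in PAB with age, and 31 for the interaction. Same-numbered libraries correlated at -0.1 to 0.144 in their deviations from the group means. Between P3 sham and P3 PAB, same-numbered libraries correlated at 0.079 to 0.144 and differently numbered ones at -0.085 to 0.005. The methods do not state pairs, so the main fit held no block, and whether the numbers mark a shared batch was not tested.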
